A study of Mus musculus with 147 samples.

Results

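The 10 genes described here code for Tudor-domain and other proteins of the piRNA pathway, and they are Tdrd1, Tdrd5, Tdrd6, Tdrd7, Tdrd9, Tdrkh, Mael, Mov10l1, Asz1 and Pld6. They were chosen by name, not by their values, and all 10 have a row among the 31053 genes of the unique molecular identifier (UMI) count table. PIWI-interacting RNAs (piRNAs) are small germline RNAs that guide PIWI proteins to transposon transcripts. Long precursor transcripts are handed by the RNA helicase MOV10L1 to the surface of mitochondria, where the nuclease PLD6 cuts them and the membrane proteins ASZ1 and TDRKH hold the processing machinery. Tudor domains bind methylated arginines of PIWI proteins, and TDRD1, TDRD5, TDRD6, TDRD7, TDRD9 and MAEL are found in the perinuclear granules (nuage and chromatoid body) in which the pathway is assembled. In male mice the fetal pathway directs DNA methylation of transposons, and a second wave of piRNAs is made in meiotic cells after birth.

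Single cells of the male germline were profiled by a modified STRT-seq protocol, in which UMIs count the 3′ ends of transcripts. The wild-type cells came from offspring of C57BL/6 females and males carrying the Blimp1-mVenus and Stella-ECFP reporters (BVSC), and were taken at 28 time-points between embryonic day (E) 6.5 and the adult testis. From E8.5 to E18.5 cells were sorted by the reporters, embryos being pooled, with Stella-ECFP alone used from E14.5 onwards. The study describes PCR for the Sry gene to choose males at E10.5 and E11.5, and no sexing at E8.5 and E9.5. Part of the E10.5 cells carry no sex in their names, so the earliest cells may include female ones. After birth, cells were picked by the look of a germ cell. Part of the cells of PND14 and PND30 were also sorted by DNA content, as their names give a gate. At PND30 the 1N, 2N and 4N gates held 192, 189 and 191 cells in replicate 1 and 94, 88 and 95 in replicate 2. The mixture of cells in those pools thus follows the sorting in part. Helq null cells came from mice founded by BVSC embryonic stem cells in which CRISPR/Cas9 deleted bases in the first exon of Helq, a DNA helicase gene, so these animals carry the same reporters. The labels of the libraries hold codes only, and the time-point, replicate and genotype of each cell were read from the deposited table of cells.

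Of 11896 wild-type cells, 11598 passed the filters of the study, and 9972 of these were from E8.5 or later. The wild-type cells that fell into germ-cell clusters and outside the reporter-negative gate numbered 8044. They were summed into pools, 1 for each time-point and replicate, and the 50 pools with at least 10 cells span 26 time-points. A pool held 27 to 572 cells and 11603962 to 197524235 UMIs (median 35295583). Levels are given as counts per 1000000 UMIs of the pool (CPM), and a pool level cannot tell fewer expressing cells from less RNA in each cell. E8.5, E17.5 and the adult have 1 pool each. None of the 72 reporter-positive cells of E17.5 replicate 1 fell into a germ-cell cluster, against 47 of them with finer clusters. Of 824 adult cells that passed, 454 fell into germ-cell clusters, against 773 with finer clusters. A cluster with 359 adult cells was highest in Leydig cell markers and was left out. With finer clusters, 318 adult cells lay in a cluster highest in spermatocyte markers. Adult levels thus miss cells that finer clusters call germ cells. The 10 germ-cell markers summed to 1673 CPM or more in every pool before PND30 and to 674 to 1105 CPM from PND30 on, when round spermatid markers reached 624.8 to 2112 CPM. No 2 cells had identical counts, and all libraries share the same 96 well barcodes.

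Pools were grouped in 8 windows that follow germ-cell development. The migrating window covers primordial germ cells of E8.5 to E10.5, the gonadal window E11.5 to E13.5, the arrest window (mitotic arrest) E14.5 to E16.5, the perinatal window E17.5 to postnatal day (PND) 0, and the re-entry window (return to the cell cycle) PND1 to PND3. The spermatogonia window covers PND4 to PND7, the first wave window (start of meiosis) PND10 to PND14, and the late window PND30, PND35 and the adult. PND8 was kept apart.

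The promoters of several members share an E-box, the sequence CACGTG bound by basic helix-loop-helix factors. RefSeq promoter windows of 300 bases (250 before and 50 after each transcription start, build GRCm38.p6) were matched for 9 of the 10 members. CACGTG, which reads the same on both strands, was present in a window of 5 of these 9 genes (Tdrd1, Tdrd9, Mael, Mov10l1 and Pld6), against 8.09% of the 27025 genes with a window. Of 12 other piRNA pathway genes with a window, 4 held it (Piwil1, Fkbp6, Stk31 and Wdr77). The E2F core GCGGGA, searched on both strands, was found in Tdrd5 and Mael, 2 of 9 members against 22.05% of all genes. The MYB core AACNG, also searched on both strands, was found in 9 of 9 members but also in 82.42% of all genes. These are letter matches in fixed windows, and binding was not measured. The stretches around the E-boxes are shown as the motif whose share among the members differed most from that among all genes. Capitals mark the E-box, and each stretch runs 5′ to 3′ along the strand of its gene. Counted from the RefSeq start of its window, the E-box starts 11 bases before the Tdrd1 start and 33 before the Pld6 start. The other distances are 95 and 165 (Tdrd9), 223 (Mael) and 246 (Mov10l1). From a second Tdrd1 start the distance is 77, and a further window of Tdrd1 and of Pld6 held no E-box. RefSeq starts can differ from the gene starts given below.
Tdrd1, chr19:56826171-56826208, plus strand: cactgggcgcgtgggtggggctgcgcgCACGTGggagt
Tdrd9 distal, chr12:111971367-111971426, plus strand: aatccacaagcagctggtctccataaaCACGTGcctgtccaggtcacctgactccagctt
Tdrd9 proximal, chr12:111971437-111971496, plus strand: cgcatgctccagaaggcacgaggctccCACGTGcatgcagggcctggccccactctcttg
Mael, chr1:166238935-166238994, minus strand: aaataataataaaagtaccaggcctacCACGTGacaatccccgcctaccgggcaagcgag
Mov10l1, chr15:88982744-88982780, plus strand: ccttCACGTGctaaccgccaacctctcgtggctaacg
Pld6, chr11:59787658-59787717, minus strand: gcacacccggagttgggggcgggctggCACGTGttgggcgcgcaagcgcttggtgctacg

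All 10 are protein-coding genes in GENCODE M21 (GRCm38). Tdrd1 lies at chr19:56826209-56870012 (plus strand), Tdrd5 at chr1:156255296-156303664 (minus), Tdrd6 at chr17:43615335-43630299 (minus), Tdrd7 at chr4:45965334-46034761 (plus) and Tdrd9 at chr12:111971559-112068854 (plus). Tdrkh lies at chr3:94413273-94434668 (plus), Mael at chr1:166201201-166238747 (minus), Mov10l1 at chr15:88982909-89055152 (plus), Asz1 at chr6:18050964-18109061 (minus) and Pld6 at chr11:59783897-59787645 (minus). An exon of Tdrd5 overlaps the antisense gene 4930518J20Rik (mean 7.12 CPM over the 50 pools), and an exon of Tdrkh overlaps the opposite-strand gene Oaz3 (mean 4.40 CPM). Whether reads were counted by strand is not stated in the sources used here, so reads of these overlaps could belong to either gene.

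Levels of the 10 genes followed 3 broad courses (see the plot of levels by time-point). Tdrd1, Tdrd5, Tdrd9, Mael, Mov10l1 and Asz1 had their highest mean between E15.5 and E17.5. Tdrd6, Tdrd7 and Pld6 had it at PND35 or in the adult. Tdrkh had it at PND7, at 257 and 272 CPM in the 2 pools. Neighbours in the order of a gene's 26 time-point means often did not separate, since the ranges of their pools overlapped in 14 (Mov10l1) to 23 (Tdrd7) of the 25 neighbouring steps. Between the replicates of a time-point the median ratio of the higher to the lower pool was 1.07 for Tdrkh, 1.11 for Mael and 1.99 for Tdrd6, with the other members between.

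**Figure D1:**
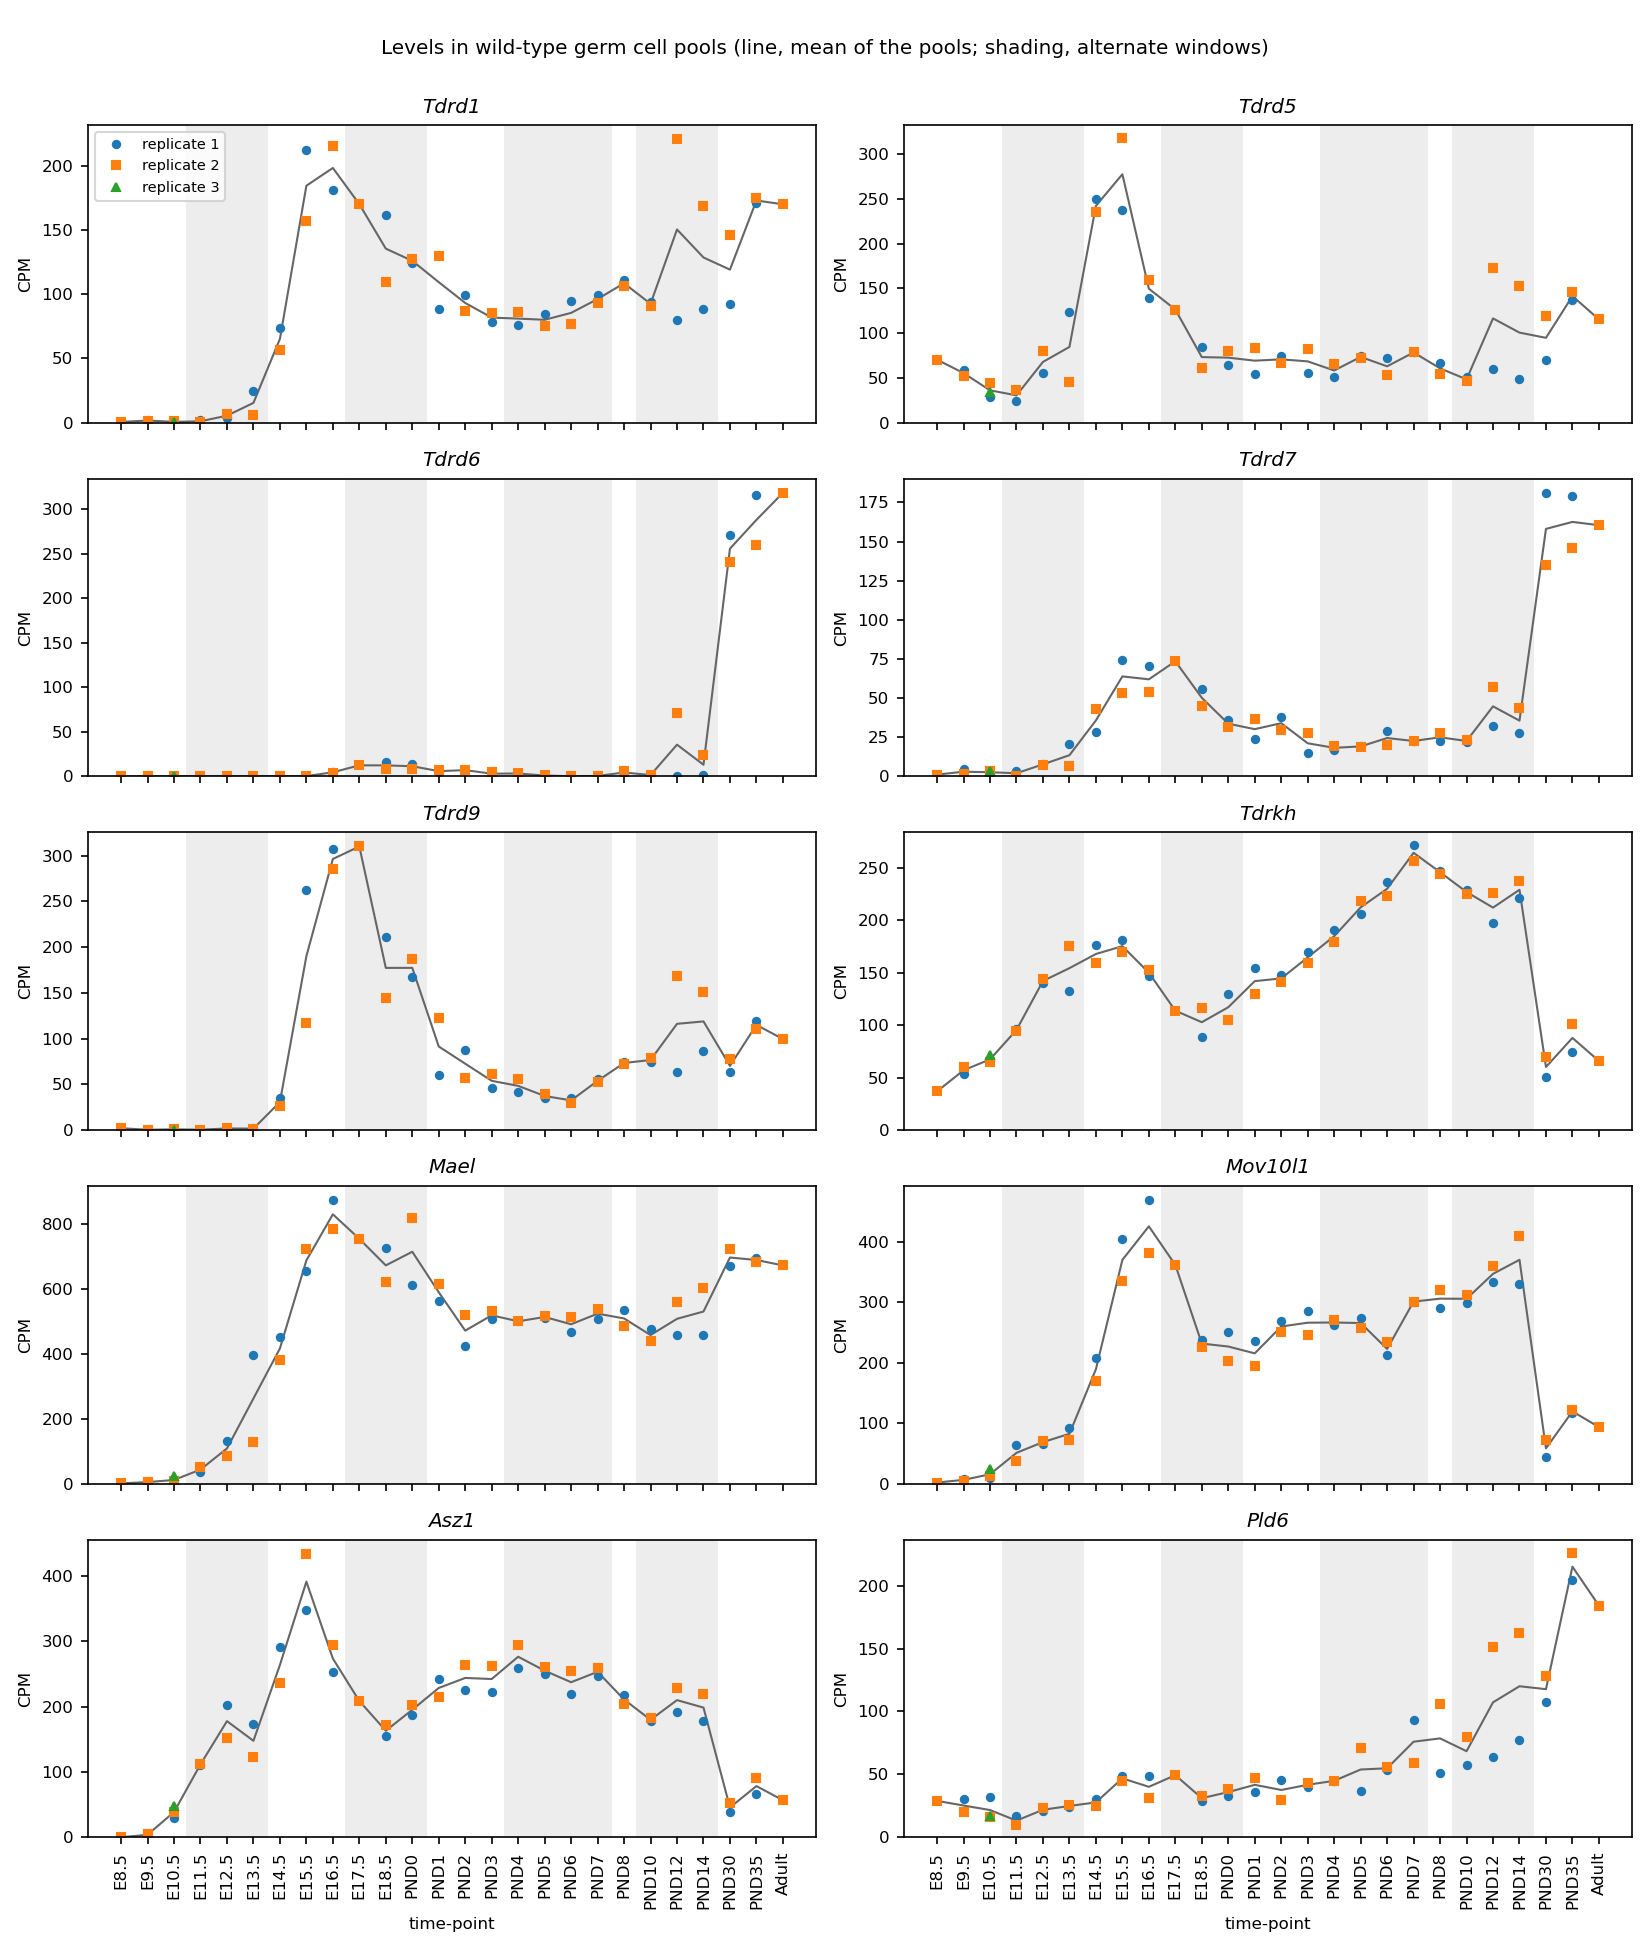
CPM of the 10 members in each of the 50 wild-type germ-cell pools by time-point, with a linear axis for each gene that starts at 0, points for pools, a line through the time-point means and shading for alternate windows. Tdrd9 lies at or below 2.38 CPM in every pool up to E13.5 and at 26.3 CPM or above from E14.5 on, and Tdrd6 passes 100 CPM in the 5 pools of PND30, PND35 and the adult alone.

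Members differed in the time-point at which all pools first reached 10 CPM. Tdrd5, Tdrkh and Pld6 were above it already in the E8.5 pool, at 70.4, 36.8 and 28.9 CPM. Asz1 first had all its pools at that level at E10.5, Mael and Mov10l1 at E11.5, and Tdrd1, Tdrd7 and Tdrd9 at E14.5. Tdrd6 had it at E17.5, was at 0 UMIs in 10 of the 50 pools, and reached 10 CPM in 10 pools.

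Between the migrating and gonadal windows, the question was which members come on as germ cells settle in the gonad. Mael had 0.642 CPM at the lowest, 4.68 at the median and 23.8 at the highest in the 6 migrating pools, against 36.9, 107.4 and 397 CPM in the 6 gonadal pools. The windows did not overlap, and the fitted rise was 4.24 ± 0.46 (log2 fold change ± SE, edgeR adjusted p = 1.15e-08). Asz1 went from 0.0292, 17.55 and 47.9 CPM to 111.1, 137.4 and 203 CPM, a rise of 2.80 ± 0.51 on the log2 scale. Mov10l1 went from 1.78, 8.67 and 24.3 CPM to 37.3, 68.7 and 92.3 CPM, a rise of 2.73 ± 0.32. Tdrkh, with the smallest SE of the members, rose by 1.17 ± 0.17 from 36.8 to 71.5 CPM up to 94.5 to 176 CPM. Each of these genes was separate between the windows in every pool. How many of all genes were separate was not counted, here or in the later window and gate comparisons.

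Tdrd1 and Tdrd7 rose as well, by 2.96 ± 0.51 and 1.65 ± 0.39 on the log2 scale (edgeR adjusted p = 6.29e-05 and 0.00312), but their gonadal pools still reached only 24.8 and 20.5 CPM and overlapped the migrating pools. In all 6 of 10 members rose and 0 fell, beside 13.2% of the 26439 genes tested that were called (7.63% rose, 5.56% fell). The median log2 fold change of the members was 1.41 and that of all genes 0. Tdrd5 (0.37 ± 0.31), Tdrd9 (0.66 ± 0.48), Pld6 (-0.24 ± 0.26) and Tdrd6, which had 15 UMIs in the migrating and 6 in the gonadal pools, did not pass the test. Among the 18 other piRNA pathway genes of the list, 13 rose and 0 fell. The largest were Piwil4 (4.30 ± 0.69), the PIWI protein that acts in the fetal nucleus, Stk31 (2.90 ± 0.29), a Tudor-domain protein that rose from at most 59.5 to at least 151 CPM, and Piwil1 (2.42 ± 0.73), which stayed at or below 3.59 CPM.

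Of the 10 members, Tdrd9 made the largest fitted step into mitotic arrest. Tdrd9 codes for an RNA helicase with a Tudor domain, and had 0.202, 1.07 and 2.38 CPM as the lowest, median and highest gonadal pool, and 26.3, 190 and 307 CPM in the arrest window. Every arrest pool was above every gonadal pool, and the rise was 6.77 ± 0.55 on the log2 scale (108.9-fold, edgeR adjusted p = 1.03e-12). Within the window the level was 34.8 and 26.3 CPM at E14.5, 263 and 117.2 CPM at E15.5 and 307 and 286 CPM at E16.5. Tdrd1, a scaffold of the nuage, rose by 3.94 ± 0.51 from 0.202 to 24.8 CPM up to 56.8 to 216 CPM. Tdrd7 rose by 2.43 ± 0.40, Mov10l1 by 1.90 ± 0.31 and Tdrd5 by 1.59 ± 0.32, each without overlap between the windows.

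Mael rose by 1.84 ± 0.41 (edgeR adjusted p = 0.000338), though the gonadal pool of E13.5 replicate 1, at 397 CPM, lay above the lowest arrest pool of 382 CPM. Tdrd6 passed the test (edgeR adjusted p = 0.00522) at levels of 0 to 5.35 CPM, from 6 UMIs in the gonadal and 228 in the arrest pools. Thus 7 of 10 members rose and 0 fell, where 50.2% of all genes tested were called (33.6% rose, 16.6% fell). The median log2 fold change was 1.87 for the members and 0.58 for all genes. Asz1, at 111.1 to 203 CPM before and 237 to 434 CPM after, did not overlap but did not pass (0.77 ± 0.48, edgeR adjusted p = 0.176), and Pld6 (0.58 ± 0.26) and Tdrkh (0.01 ± 0.17) did not pass either. Of the 18 other pathway genes 13 rose and 2 fell. Spocd1, a nuclear factor for piRNA-directed DNA methylation, rose by 9.53 ± 0.88 to 10.4 to 430 CPM, Henmt1, which methylates the 3′ ends of piRNAs, by 5.01 ± 0.54, and Piwil4 by 4.75 ± 0.66. Prmt5 and Wdr77, whose complex makes the arginine marks that Tudor domains bind, fell by 0.43 ± 0.13 and 0.93 ± 0.22.

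**Figure D2:**
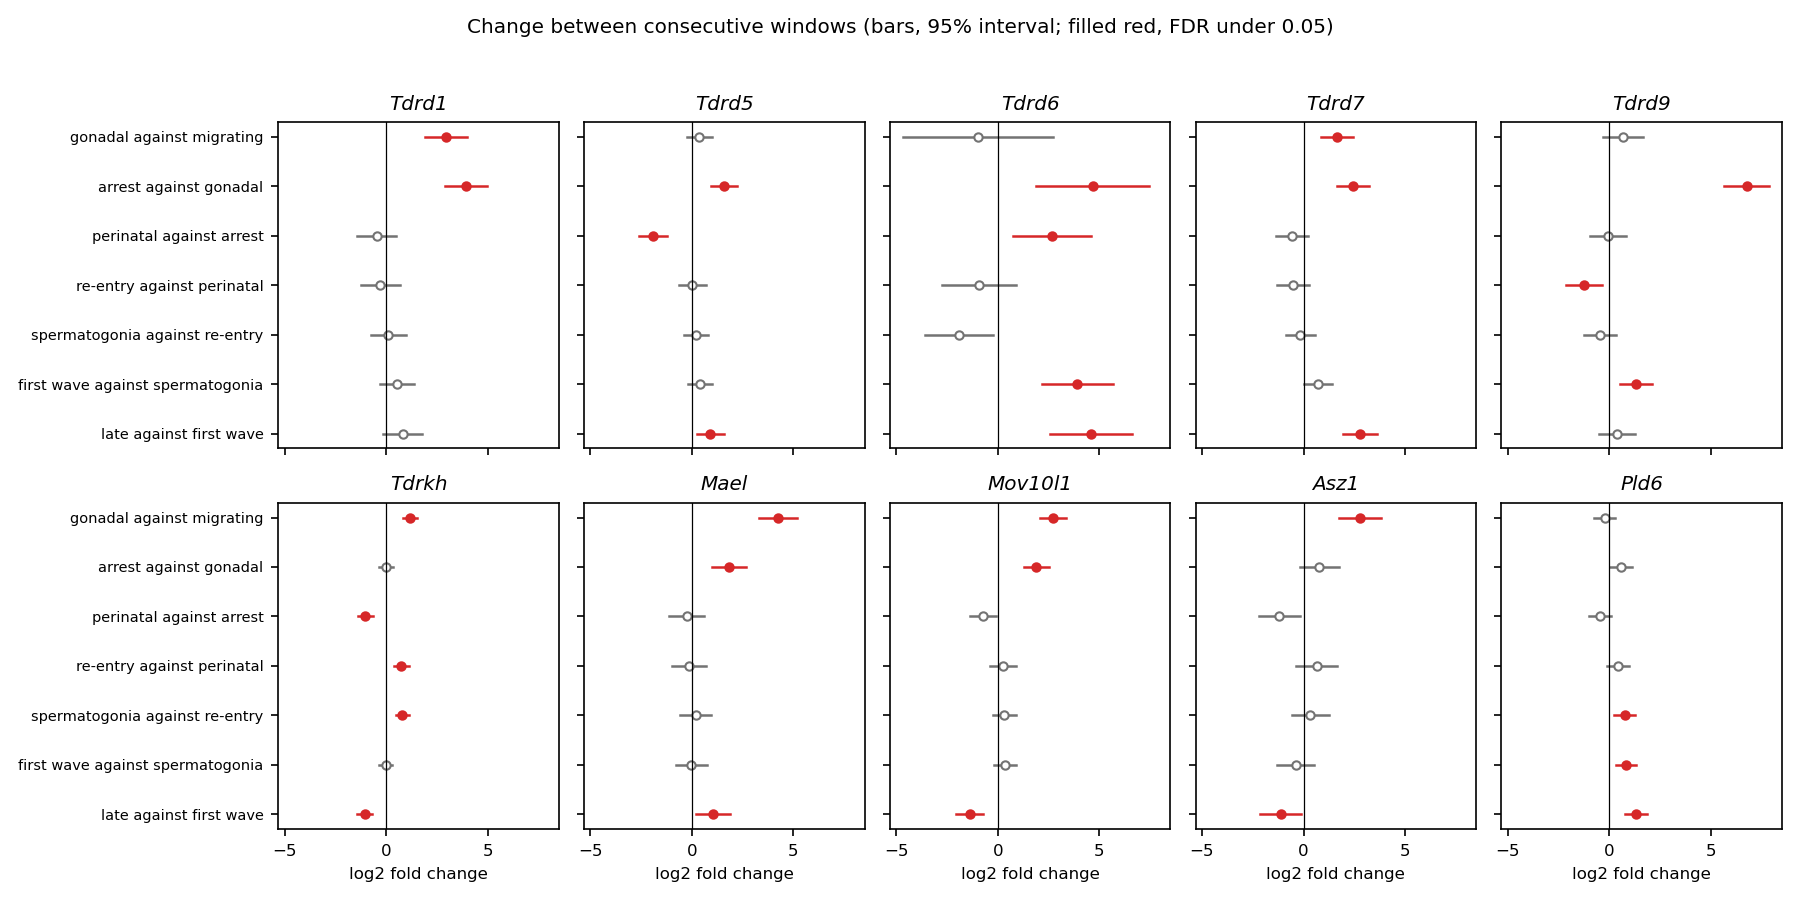
Fitted log2 fold change between neighbouring windows, a panel for each member and a row for each comparison, with bars for 95% confidence intervals and filled red points for edgeR adjusted p under 0.05. The largest rise is that of Tdrd9 from the gonadal to the arrest window, at 6.77, and the row for the late window holds rises up to 4.57 (Tdrd6) and falls down to -1.39 (Mov10l1).

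Around birth, 2 members fell and 1 rose. Tdrd5, needed for nuage assembly, had 140, 236 and 318 CPM as the lowest, median and highest arrest pool. Its 5 perinatal pools were at 126.5 CPM (E17.5), 85 and 61.6 CPM (E18.5) and 64.8 and 80.5 CPM (PND0), all below the arrest pools, and it fell by 1.90 ± 0.35 on the log2 scale (edgeR adjusted p = 4.09e-05). Tdrkh fell by 1.02 ± 0.18, from 147.3 to 181 CPM down to 89.2 to 129.3 CPM. Tdrd6 rose by 2.67 ± 0.96 (edgeR adjusted p = 0.0308), to 12.3 CPM at E17.5, 16.3 and 8.27 CPM at E18.5 and 14.1 and 8.5 CPM at PND0. These 3 calls of 10 members stand beside 29.1% of all genes called (11.3% rose, 17.8% fell).

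The median log2 fold change was -0.52 for the members and 0.29 for all genes. Asz1 had 237 to 434 CPM in the arrest and 155 to 209 CPM in the perinatal pools, which did not overlap, but its change of -1.19 ± 0.51 did not pass (edgeR adjusted p = 0.0741). Asz1 and Mov10l1 passed as falls once the E8.5 pool was left out, giving 5 members. Mael had 612 to 819 CPM in the perinatal pools, a change of -0.26 ± 0.42 that did not pass, and Tdrd9 had its highest pool of all at E17.5, 310 CPM. That time-point rests on replicate 2, and all reporter-positive cells of replicate 1, which lay outside the germ clusters, had 165.1 CPM of Tdrd9, 26.7 CPM of Tdrd7 (73.5 in replicate 2) and 232 CPM of Mov10l1 (362 in replicate 2). Of the 18 other pathway genes 6 fell and 0 rose, led by Wdr77 (-1.27 ± 0.24), Tdrd12 (-1.15 ± 0.26), a further Tudor-domain protein, and Stk31 (-0.96 ± 0.29). With another scaling (relative log expression, RLE) the share of rises among all genes called went from 38.9% to 58.7%. Scaling by RLE also turned the signs of Tdrd9 and Mael, neither of them called.

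When the cells returned to the cycle after birth, Tdrd9 fell and Tdrkh rose. The 5 perinatal pools of Tdrd9 were at 310, 211, 143.9, 168 and 187 CPM, and its 6 re-entry pools at 45.8, 61.2 and 122.03 CPM as lowest, median and highest. The fall of 1.25 ± 0.44 on the log2 scale passed narrowly (edgeR adjusted p = 0.0354) and did not pass in 8 of the 11 fits that left out 1 pool. Tdrkh rose by 0.74 ± 0.18 (edgeR adjusted p = 0.00186), with all 6 re-entry pools, at 130 to 170 CPM, above the highest perinatal pool of 129.3 CPM. The 2 calls of 10 members stand beside 22.5% of all genes called (14.8% rose, 7.7% fell), and neither was called when germ cells before birth were defined by the reporter gate alone. Members had a median log2 fold change of -0.07 and all genes one of -0.14.

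Tdrd6 was lower in every re-entry pool (1.56 to 7.32 CPM) than in every perinatal pool (8.27 to 16.3 CPM), and Asz1 higher (215 to 263 CPM against 155 to 209 CPM), but their changes of -0.94 ± 0.90 and 0.66 ± 0.50 did not pass. Among the 18 other pathway genes 3 rose and 3 fell. Spocd1 (-2.30 ± 0.62) and Piwil4 (-1.75 ± 0.60), both of the nuclear arm of the fetal pathway, fell, as did Mybl1 (-1.70 ± 0.46), the transcription factor A-MYB. Wdr77 (1.27 ± 0.24), Tdrd12 (0.69 ± 0.26) and Pnldc1 (0.66 ± 0.20), the nuclease that trims piRNA 3′ ends, rose. The share of rises among all genes called was 65.9% and, with RLE scaling, 44.5%, and the signs of Tdrd5 and Mov10l1, neither called, turned with it.

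From re-entry to the spermatogonia window Tdrkh rose further, by 0.79 ± 0.16 on the log2 scale (edgeR adjusted p = 0.00125). Its 6 re-entry pools had 130, 151 and 170 CPM and its 8 spermatogonia pools 179, 221 and 272 CPM as lowest, median and highest, with no overlap. Pld6 rose by 0.75 ± 0.25 (edgeR adjusted p = 0.0268), from 29.9, 41.7 and 47.1 CPM to 37, 54.9 and 92.9 CPM. The Pld6 windows overlapped, and its call was lost with RLE scaling, with no filter on low counts and with DESeq2. Calls numbered 2 of 10 members, beside 22.4% of all genes (7.91% rose, the others fell). The medians were 0.20 for the members and -0.23 for all genes. When the reporter gate alone defined germ cells before birth, 0 members were called. That setting changed none of the pools compared, only others in the shared fit.

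Mael, Mov10l1 and Asz1 did not pass, at 470 to 540, 212 to 301 and 219 to 294 CPM in the spermatogonia pools. Tdrd6 went down to 0.0442 CPM at PND6, its lowest pool after birth, but its change of -1.91 ± 0.83 did not pass (edgeR adjusted p = 0.0869). Of the other pathway genes Wdr77 (0.86 ± 0.21), Rnf17 (0.52 ± 0.15), a Tudor-domain protein, and Prmt5 (0.45 ± 0.12) rose, and Spocd1 fell (-1.76 ± 0.54). Rises were 35.3% of all calls and 20.8% with RLE scaling, which also turned the sign of Tdrd1, not called.

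In the first wave window 3 members were called, and 0 in a fit without replicate 2 of PND12 and PND14. Tdrd6, a scaffold of the chromatoid body, had 1.75 and 1.00 CPM at PND10, 0.399 and 70.7 CPM at PND12 and 1.91 and 24.1 CPM at PND14. Against 0.0442, 0.574 and 4.25 CPM (lowest, median and highest) in the spermatogonia window this gave a rise of 3.92 ± 0.87 on the log2 scale (edgeR adjusted p = 0.000732). The high values were those of replicate 2 at PND12 and PND14. Tdrd9 rose by 1.30 ± 0.39 without overlap, from 29.5 to 55.3 CPM up to 63.5 to 169 CPM, and Pld6 by 0.81 ± 0.24, from 37 to 92.9 CPM up to 57.1 to 162 CPM. These were 3 of 10 members, beside 22.6% of all genes called (15.6% rose, 6.99% fell), with medians of 0.48 for the members and 0.11 for all genes.

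Without replicate 2 of PND12 and PND14, 0 members and 2019 genes were called, against 5968 genes with them. Fewer pools were fitted then. The Tdrd9 pools that were left, at 63.5 to 86.2 CPM, still lay above its highest spermatogonia pool of 55.3 CPM. At PND12 replicate 2 was above replicate 1 for Tdrd1 (221 against 80.1 CPM), Tdrd5 (173 against 59.8 CPM), Tdrd9 (169 against 63.5 CPM) and Pld6 (151 against 63.6 CPM). The 7 spermatocyte markers summed to 1111 and 1268 CPM in replicates 1 and 2 of PND12 and to 1261 and 1875 CPM at PND14. The 8 spermatogonium markers summed to 714 and 468 CPM and to 598 and 312 CPM, and the 7 Sertoli cell markers, a somatic list, to 626 and 112.4 CPM and to 373 and 64.3 CPM. The labelled DNA-content gates of PND14 held 285 2N and 188 4N cells in replicate 1 and 94 2N cells in replicate 2. The part of the cell mixture and of the gates in the calls was not tested. Of the 18 other pathway genes, Piwil1 (3.00 ± 0.58), the PIWI protein of meiotic and haploid cells, and Mybl1 (2.77 ± 0.42) rose, and 0 fell.

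In the late window the members parted in direction. Tdrd6 had 271 and 241 CPM at PND30, 316 and 260 CPM at PND35 and 319 CPM in the adult, each far above the first wave pools, of which the highest was 70.7 CPM. Its rise was 4.57 ± 1.00 on the log2 scale (edgeR adjusted p = 0.000113). Tdrd7, a further chromatoid body protein, had 181 and 135.03 CPM at PND30, 179 and 146.1 CPM at PND35 and 160 CPM in the adult, against 21.7 to 56.9 CPM in the first wave, and rose by 2.78 ± 0.41. Pld6 rose by 1.30 ± 0.27, Mael by 1.03 ± 0.42 and Tdrd5 by 0.91 ± 0.33. Pld6 went from 57.1 to 162 CPM up to 107.6 to 226 CPM, with overlap. All late Tdrd5 pools lay inside its first wave range of 46.2 to 173 CPM. Mael went from 440 to 603 CPM up to 673 to 723 CPM, without overlap. The fits rescale the pools (TMM scaling) and CPM does not, so the sizes of change differ. The fitted rise of Mael was larger than the step in its mean, from 499 to 690 CPM.

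Mov10l1 fell by 1.39 ± 0.32, from 300 to 410 CPM to 43.8 and 72.8 CPM at PND30, 116.8 and 122.4 CPM at PND35 and 93.7 CPM in the adult. Asz1 fell by 1.13 ± 0.51 (edgeR adjusted p = 0.0473), from 177 to 228 CPM down to 38.4 to 90.9 CPM, and Tdrkh by 1.06 ± 0.18, from 198 to 238 CPM down to 50.5 to 101.3 CPM. Mov10l1, Asz1 and Tdrkh did not overlap between the windows. The 8 calls of 10 members (5 rises, 3 falls) stand beside 66.6% of all genes called (37.2% rose, 29.4% fell), so a share this high was common to the transcriptome. The medians were 0.86 for the members and 0.30 for all genes. Tdrd1 (0.81 ± 0.47) and Tdrd9 (0.38 ± 0.44) did not pass.

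Of the 18 other pathway genes 4 rose and 7 fell between the first wave and late windows. Piwil1 (2.24 ± 0.65), Mybl1 (1.63 ± 0.46) and Gtsf1 (1.38 ± 0.43), a PIWI cofactor, rose, and Piwil4 (-6.14 ± 0.77), Btbd18 (-3.71 ± 0.43) and Tex15 (-2.12 ± 0.24) fell. Scaling by RLE moved the median of all genes by 0.39 in this comparison, and by 0.23, 0.27, -0.26 and -0.18 in the arrest, perinatal, re-entry and spermatogonia comparisons. Neighbouring comparisons share the pools of the window between them, so a rise in one and a fall in the next are not independent.

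Markers of other cell types also moved along the series of germ-cell pools. The 7 Sertoli cell markers summed to 13.7 to 33.9 CPM in the gonadal, 160 to 216 CPM in the perinatal and 12 to 17.6 CPM in the late window. The 6 interstitial markers summed to 1.27 to 23.5 CPM in the gonadal and 152 to 189 CPM in the perinatal window. A list of 5 visceral endoderm genes (Ttr, Apoa1, Afp, Sox17 and Cldn6) summed to 4.09 to 75.9 CPM in the gonadal, 456 to 578 CPM in the re-entry and 22.8 to 39.5 CPM in the late window. Of this list, Afp was itself among the leading genes (highest over the other clusters) of a germ-cell cluster. That cluster held 1302 cells, 334 of them from PND0. The 6 blood markers summed to 7.78 to 110.2 CPM in the arrest, 179 to 391 CPM in the perinatal and 2.28 to 24.5 CPM in the late window, and the 5 Leydig cell markers to 4.49 to 309 CPM in the arrest and 15.9 to 615 CPM in the perinatal window. The 4 endothelial markers summed to 29.6 to 178.8 CPM in the arrest and 123.3 to 203 CPM in the perinatal window. No marker of these 6 lists was at 0 in all pools of a window. Their part in the members' changes was not tested.

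The share of cells with at least 1 UMI was compared after thinning every cell to 50000 UMIs and leaving out shallower cells (16 of 546 in the migrating to 78 of 2189 in the late window). Intervals are exact binomial, cover counting error only and treat cells of a pool as separate. Tdrd9 UMIs were seen in 1.70% of 530 migrating cells, 4.39% of 456 gonadal cells and 76.9% of 540 arrest cells (before thinning 4.95%, 11.2% and 89.8%). Tdrd6 was seen in 0.219% of gonadal, 24.6% of perinatal, 3.58% of spermatogonia and 98.9% of late cells (before thinning 0.636%, 50.1%, 8.81% and 99.3%). Mael went from 13.2% of migrating to 81.4% of gonadal cells and 100% of arrest cells (before thinning 30%, 93.2% and 100%). Tdrd5 and Tdrkh were seen in 69.8% and 73.2% of migrating cells (before thinning 91.8% and 90.8%). Median depth was 331144 UMIs in the migrating, 312864 in the gonadal and 285657 in the arrest cells.

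Sorting by DNA content at PND30 separated haploid (1N), 2N and 4N cells from the same 2 animals, and all cells of a gate were summed whatever their cluster. Tdrd5 had 7.96 and 16.4 CPM in the 1N pools of replicates 1 and 2, 28.7 and 93.9 CPM in the 2N pools, and 148 and 143.1 CPM in the 4N pools. It was lower in 1N than in 4N cells by 3.37 ± 0.56 on the log2 scale (edgeR adjusted p = 0.00316). Thinned to the same depth, 22.1% of 1N, 44% of 2N and 89.9% of 4N cells had a Tdrd5 UMI (before thinning 51.7%, 76.9% and 99.3%, at median depths of 235781, 338694 and 364400 UMIs). Tdrd1 had 38 and 37 CPM in 1N and 160 and 170 CPM in 4N cells, a difference of -1.95 ± 0.39. Pld6 had 48 and 44.6 CPM against 192 and 128.8 CPM (-1.59 ± 0.33).

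Mov10l1 (-1.44 ± 0.43), Asz1 (-1.22 ± 0.37), Tdrd9 (-1.12 ± 0.32) and Tdrkh (-1.08 ± 0.35) were lower in 1N cells too, each with both 1N pools below both 4N pools. That makes 7 of 10 members lower and 0 higher, beside 29% of 20269 genes called (16.8% higher, 12.2% lower in 1N), with medians of -1.17 for the members and 0.20 for all genes. Tdrd6, Tdrd7 and Mael did not pass. Tdrd6 kept 231 and 165 CPM in 1N cells against 313 and 327 CPM in 4N cells (-0.51 ± 0.24, 95% interval -1.04 to 0.01), Tdrd7 had 191 and 137.6 CPM against 153 and 151 CPM (0.30 ± 0.27, interval -0.30 to 0.89), and Mael 693 and 889 CPM against 688 and 720 CPM (0.37 ± 0.22, interval -0.11 to 0.85). Except for Tdrd7 and Mael, the 2N pool of each member lay between its 1N and 4N pools in both replicates. The share of all genes in this order was not counted.

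With only 2 pools a gate, the calls were unstable to the loss of a pool. Leaving out 1N replicate 2 left 0 genes called of any kind, leaving out 4N replicate 2 left 3 members and 2381 genes, leaving out 4N replicate 1 left 3 members, and leaving out 1N replicate 1 left 4. The 6 round spermatid markers summed to 3126 and 5023 CPM in 1N and 848 and 663 CPM in 4N pools. Of 17 other pathway genes tested, 3 were higher and 11 lower in 1N cells. Piwil1 had 31.9 to 42.8 CPM in 1N and 288 to 311 CPM in 4N cells (-2.80 ± 0.42), Prmt5 differed by -2.42 ± 0.39 and Piwil2 by -2.24 ± 0.44. Btbd18 (3.04 ± 1.00), at most 2.44 CPM, Tex15 (1.61 ± 0.40) and Gtsf1 (0.70 ± 0.23) were higher.

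**Figure D3:**
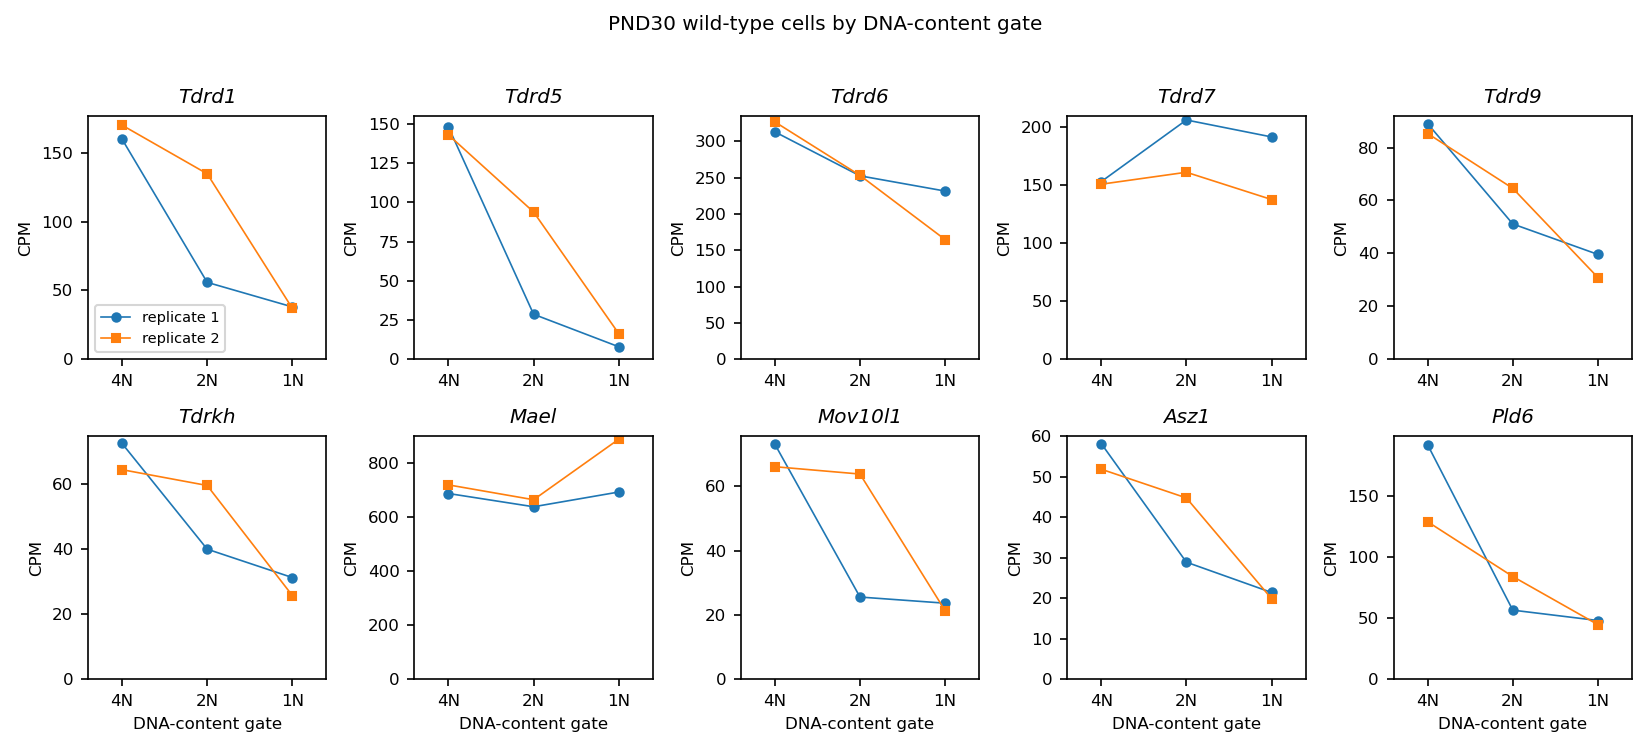
CPM of the 10 members in PND30 cells sorted as 4N, 2N and 1N, on linear axes that start at 0, with a line joining the gates of each of the 2 replicates. Tdrd5 lies at 7.96 and 16.4 CPM in 1N and at 148 and 143.1 CPM in 4N cells, while Mael stays between 639 and 889 CPM in all 6 pools.

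Whether the members mark germ cells within the fetal gonad was asked of reporter-positive and reporter-negative cells of E11.5 to E18.5, with 16 pools of each. Positive pools hold all cells of that gate whatever their cluster, those of E17.5 replicate 1 included. Asz1 had 111.9 CPM at the lowest, 193 at the median and 431 at the highest in reporter-positive pools, against 1.64, 8.47 and 32.8 CPM in negative pools. The groups did not overlap and differed by 4.39 ± 0.32 on the log2 scale (edgeR adjusted p = 4.53e-12). Tdrkh (89.2, 142.1 and 181 CPM against 5.29, 15.4 and 31.3 CPM) and Tdrd5 (28.8, 108.7 and 316 CPM against 1.26, 5.10 and 24.8 CPM) did not overlap either, with differences of 3.04 ± 0.16 and 3.68 ± 0.44. All 9 members tested were higher in reporter-positive cells, beside 63% of 15243 genes called (33.1% higher, 29.9% lower). Their median difference was 3.44, and that of all genes 0.07. Differences ran from 2.06 ± 0.37 (Tdrd7) to that of Asz1. Tdrd6 was removed by the filter on low counts, with 0 to 16.3 CPM in positive and 0 to 4.78 CPM in negative pools, and was called with no filter and with DESeq2.

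Mael UMIs were found in the negative gate too, with 1.16 to 3.53 CPM at E11.5 and E12.5 but 181 and 206 CPM at E17.5 and 93.2 and 155 CPM at E18.5. Positive pools of the same replicates had 49.8 to 131.4 CPM and 602 to 756 CPM. Thinned to 50000 UMIs, 22.2% of negative cells outside germ clusters had a Mael UMI in the gonadal window, 62.9% in the arrest and 100% in the perinatal window, while Tdrd6 was at 0 of 256 cells in the arrest window, where 3 cells would make 1.17% and the exact binomial upper limit was 1.43%, both for cells with a UMI and not for cells expressing the gene. The 10 germ-cell markers summed to 56.8 to 578 CPM in the negative pools and 1731 to 3931 CPM in the positive pools, and the 7 Sertoli cell markers to 372 to 2849 CPM and 19.8 to 751 CPM. Their part in the levels of the negative cells was not tested. The shares of negative cells of the gonadal window, at a median depth of 153134 UMIs, are a background against which the shares in germ cells of that window can be read. By that measure the 18% of gonadal germ cells with a Tdrd1 UMI stood above 4.19% of negative cells, and the 4.39% with a Tdrd9 UMI beside 1.2%. Of the 18 other pathway genes 17 were higher in the positive cells and 0 lower, with Piwil1 (5.38 ± 0.57), Tdrd12 (5.0 ± 0.33) and Exd1 (4.25 ± 0.37) the largest.

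**Figure D4:**
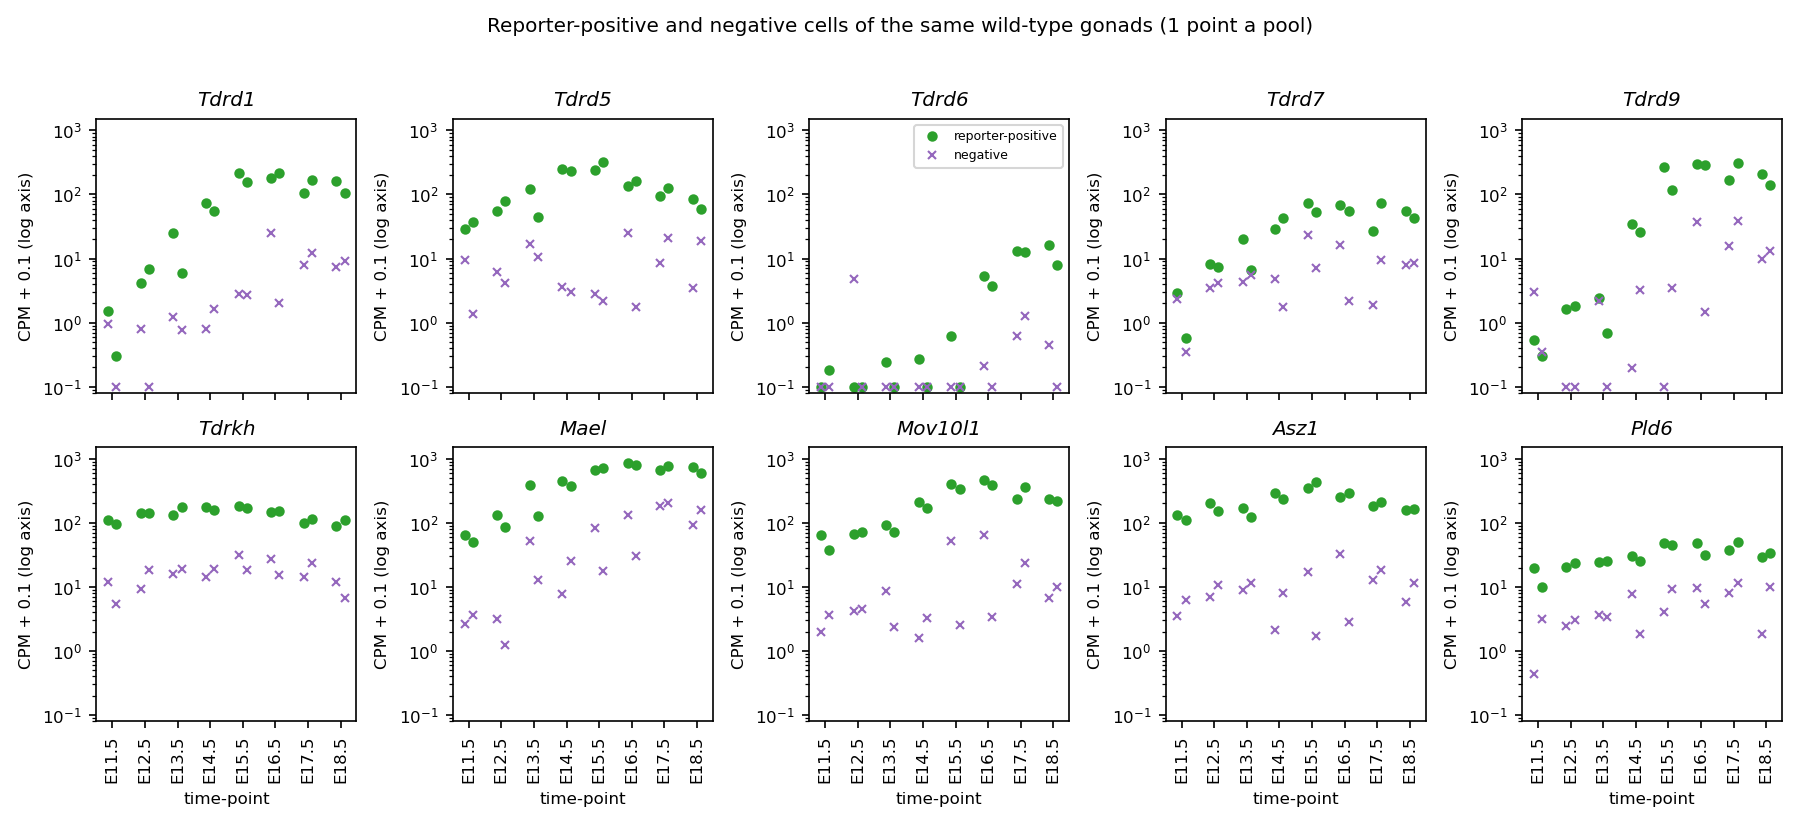
CPM of the members in reporter-positive and reporter-negative gonad cells by time-point from E11.5 to E18.5, as CPM + 0.1 on a log axis, with a point for each of 16 pools in a gate. Asz1, Tdrkh and Tdrd5 show no overlap, and negative pools of Mael reach 206 CPM.

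Helq null germ cells were compared with wild-type ones at the 6 time-points that hold both, daily to E15.5 from E11.5 and E18.5, with 9 null and 12 wild-type pools. The deletion lies in the first exon and 3′ ends were counted, so the level of Helq itself, at 15.9 to 40.3 CPM in null and 15.8 to 28.1 CPM in wild-type pools, does not check the genotype. No member passed the test (0 of 9 tested), beside 0.997% of 16350 genes called (0.367% higher, 0.63% lower), that is 163 genes, with 1931 at an unadjusted p under 0.05. DESeq2 called 574 genes and 0 members. The estimates (log2, null minus wild type) lay between -0.23 ± 0.16 (Asz1) and 0.28 ± 0.31 (Tdrd1). The 95% interval was narrowest for Tdrkh (-0.42 to 0.04) and widest for Tdrd9 (-1.03 to 0.86), so changes of Tdrd9 inside it are not excluded. These intervals are not adjusted for the number of genes tested, so they do not give the size at which a call would be made. Of the 18 other pathway genes, 0 passed.

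At E15.5, 8 of the 10 members were lower in both null pools than in both wild-type pools, a pattern seen after the fact and not tested at that time-point. Of the 16350 genes tested, 27.6% had both null pools below both wild-type pools there. Tdrd9 had 30.2 and 49.2 CPM in null against 263 and 117.2 CPM in wild-type cells, Tdrd1 81 and 88.7 CPM against 212 and 157 CPM, and Mov10l1 259 and 251 CPM against 405 and 335 CPM. At E14.5, 1 of the 10 members was lower in both null pools, beside 18.4% of all genes tested. This was Pld6, at 19.6 and 19 CPM in null against 30.8 and 24.7 CPM in wild-type cells. Tdrd9 there had 28.1 and 97.9 CPM in null and 34.8 and 26.3 CPM in wild-type cells. At E18.5, with 1 null pool, Mov10l1 had 450 CPM against 238 and 226 CPM. There 6 members lay above and 2 below both wild-type pools, beside 40.4% and 32.7% of all genes tested.

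**Figure D5:**
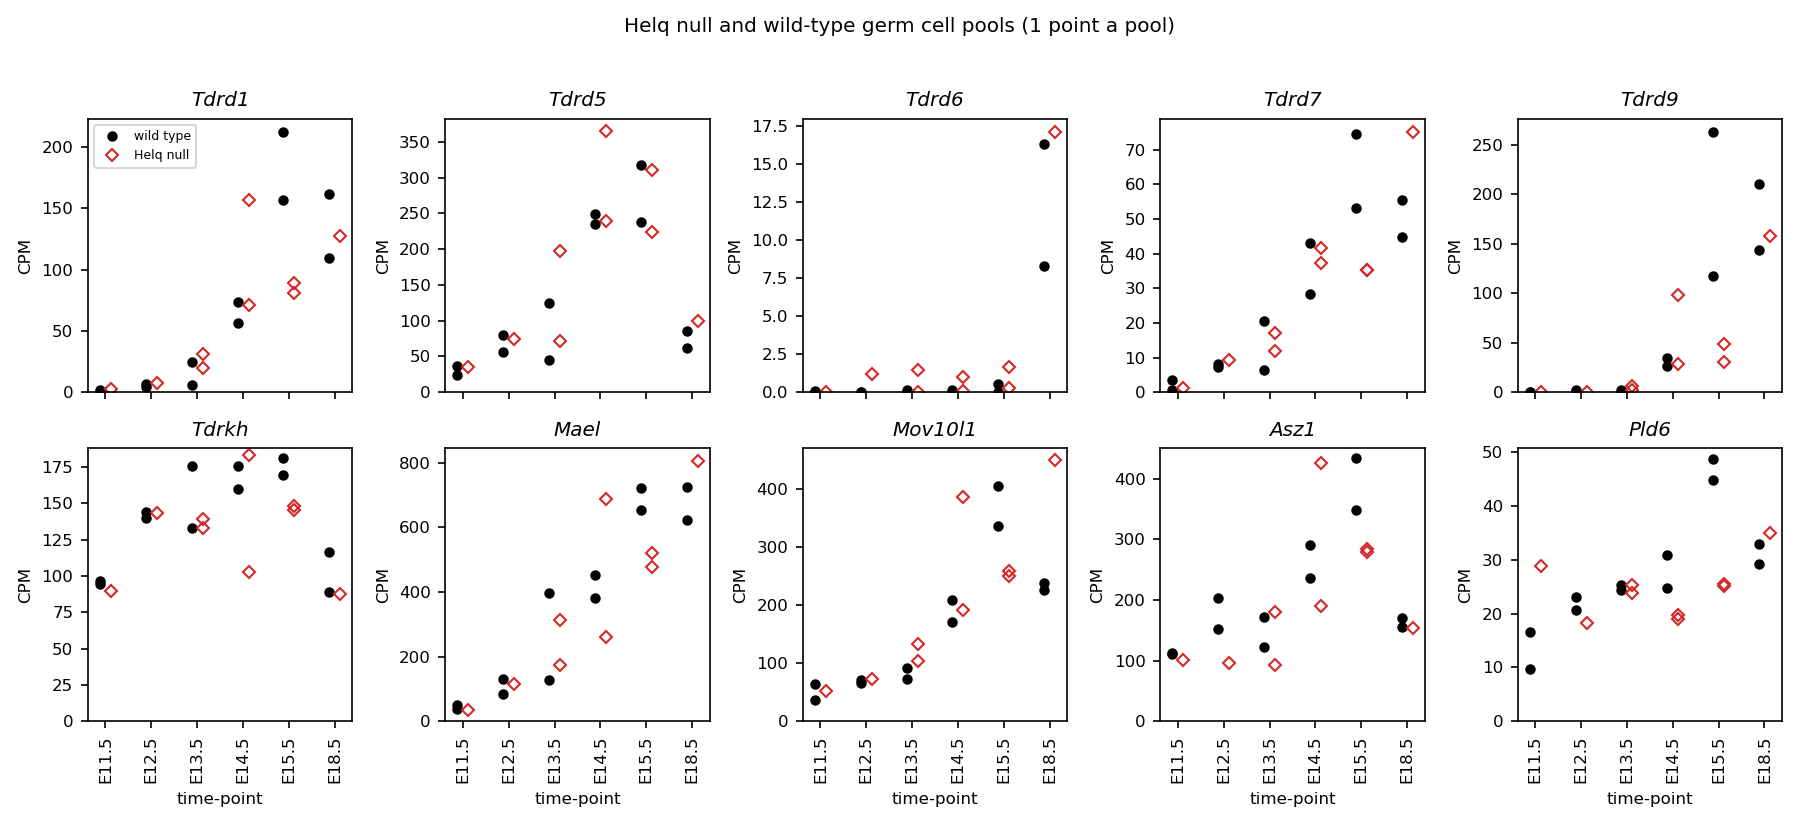
CPM of the members in Helq null and wild-type germ-cell pools by time-point, on linear axes that start at 0, a point for each pool. At E15.5 the null pools of Tdrd9 (30.2 and 49.2 CPM) lie below the wild-type pools (263 and 117.2 CPM), and at E14.5 they do not.

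Position along the gonad, proximal or distal to the mesonephros, was compared in wild-type germ cells of E13.5 to E16.5 with 8 pools each. No member passed (0 of 9 tested), as 0% of 16007 genes were called by edgeR, with 243 at an unadjusted p under 0.05, and DESeq2 called 70 genes and 0 members. Estimates (log2, distal minus proximal) ran from -0.09 ± 0.27 (Tdrd7) to 0.23 ± 0.26 (Tdrd9), with intervals of -0.11 to 0.30 for Tdrkh and -0.30 to 0.76 for Tdrd9. Tdrd6 was not tested. Among the 18 other pathway genes 0 passed.

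The likeness of the members' courses was described by Pearson's r of log2(CPM + 1) over the 50 pools, which share time-points and libraries. Within the set Tdrd1 and Tdrd9 were most alike (r = 0.956), followed by Tdrd1 and Mael (0.925) and Mael and Mov10l1 (0.914), and Tdrd6 and Tdrkh least (r = -0.251). Of 13295 genes at a mean of 5 CPM or more, Bin2 (0.974) and Fyttd1 (0.970) were most like Tdrd1, Ddx25 and Rnf212 (0.964 each) most like Tdrd9, Slc25a31 (0.980) and Tex12 (0.963) most like Mov10l1, and Prr19 (0.969) and Tuba3b (0.963) most like Mael. Asz1 was nearest to Dazl (0.946) and Slc25a31 (0.924), Tdrkh to Tex11 (0.95) and Snapc1 (0.908), and Pld6 to Fancg (0.931) and Inpp5k (0.921). Tdrd6 was nearest to Lin7a (0.979) and 1700003I22Rik (0.974), and Tdrd7 to Trafd1 (0.954) and Fam178b (0.95). Tdrd5 had the least close partners, Dmap1 (0.808) and Mterf4 (0.781).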

How the data were processed

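UMI counts per gene and cell were deposited by the authors, who extracted barcodes with UMI-tools, aligned reads to mm10 with STAR, assigned them with featureCounts of Subread and removed PCR duplicates by UMI (the submitters' processing notes also list CASAVA 1.8). Counts were used as deposited, and 0 columns of cells were left unused. Cells with over 2000 genes and 10000 to 1000000 UMIs were kept, and clustered with scanpy 1.11.5 (1000 variable genes without the 28 pathway genes, 30 components, resolution 0.3). Clusters were called germ cells by marker lists, unless several globin genes were among their leading genes. This left out a cluster of 33 E11.5 cells whose highest list was that of germ cells, with 4 globin genes among its top 10. Doublets were not called, since cells were picked or sorted into wells. Pools of at least 10 germ cells were tested with edgeR 4.0.16 in R 4.3.3 (quasi-likelihood test, TMM scaling, low counts filtered with filterByExpr), with Benjamini-Hochberg adjustment over all genes tested and a threshold of 0.05. All windows and PND8 shared 1 fit, and the reporter, Helq and gonad-position fits had the time-point as a covariate. Pools of 1 time-point come from separate animals or separate sets of embryos, as far as the study describes them. Depth per pool is given above and limits genes of few UMIs. On simulated counts for the arrest comparison (25621 genes), 37.5% of 80 genes changed by 1 on the log2 scale were recovered. For 64 genes changed by 2 and 56 changed by 4 it was 84.4% and 92.9%, with 3.55% of calls false. The simulation had no steps between time-points of a window. Far more genes, 13276, were called in the data, so these rates need not hold there.

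The genes, lists and windows were chosen with earlier results of these data known. Named were all members, of the 18 other pathway genes the 3 largest changes past the threshold in each direction, and the 2 genes most like each member. Alternatives were RLE scaling, no filter, DESeq2 1.42.0, other germ-cell definitions, leaving out pools or time-points, and a replicate block. Replicates of the gate comparisons are paired, as the same animals or gonads gave both gates or parts: correlations of their deviations were 0.27 to 0.49 for gonad position, -0.07 to 0.24 for the reporter gates and 0.03 for PND30. Promoters were from RefSeq, chromosome 18 excluded.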

Additional observations from a re-analysis of the deposited data

Results flagged for a closer look

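Of 80 groups of 4 to 10 pools, 5 held a pool far from the others. Chance alone would flag about 1 in 20 groups if the pools of a group were alike. Windows mix time-points whose levels differ, so that rate need not hold here. What set these pools apart was not tested. In the gonadal window, E13.5 replicate 1 had 24.8 CPM of Tdrd1 against 0.202 to 6.88 CPM in the other pools, and 397 CPM of Mael against 36.9 to 131.4 CPM. In the migrating window, E10.5 replicate 3 had 23.8 CPM of Mael against 0.642 to 7.19 CPM, and E10.5 replicate 2 had 0.462 CPM of Tdrd6 against 0 to 0.0358 CPM. In the first wave window, PND12 replicate 2 had 70.7 CPM of Tdrd6 against 0.399 to 24.1 CPM.

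Mov10l1 moved in opposite directions in Helq null germ cells at 2 time-points. At E13.5 the lower of the 2 null pools had 103.3 CPM and the higher wild-type pool 92.3 CPM. Of the 16350 genes tested, 22.3% had both null pools above both wild-type pools there. At E15.5 the higher null pool had 259 CPM and the lower wild-type pool 335 CPM, where 27.6% of genes had both null pools below. The difference between the time-points was not tested.

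No comparison uses the 7 pools of E6.5 or E7.5, and all 10 members had UMIs there. Tdrd5 had 10246 UMIs (5.08 to 70.4 CPM by pool), Mael 5089 (3.10 to 22.1 CPM), Tdrkh 4431 (6.5 to 24.3 CPM), Pld6 3951 (5.78 to 14 CPM) and Tdrd7 2178 (1.5 to 21.6 CPM). Tdrd1 had 993 UMIs (0.235 to 2.97 CPM), Mov10l1 987 (0.528 to 3.28 CPM), Tdrd9 782 (0.335 to 3.68 CPM), Asz1 647 (0.235 to 4.45 CPM) and Tdrd6 613 (0.0335 to 4.54 CPM). These pools were not split into germ and other cells.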

How the results depend on the processing

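No member changed direction with a call in any alternative. The number of members called was within 1.5 times the value given for the gonadal, arrest, late, reporter, Helq and gonad-position comparisons under every alternative. It was 5 in place of 3 in the perinatal comparison without E8.5. In the re-entry comparison it was 0 with the reporter gate alone before birth and 1 without E17.5, in place of 2. In the spermatogonia comparison it was 1 with RLE scaling, with no filter, with DESeq2 and without E17.5, and 0 with the reporter gate alone, in place of 2. In the first wave comparison it was 0 in place of 3 without PND12 and PND14 replicate 2, an alternative chosen after seeing the data. The cause of these changes was not tested, except that fewer pools were fitted where pools were left out. In the spermatogonia comparison, the reporter gate before birth and the loss of E17.5 changed none of the pools compared. The same holds for the loss of E8.5 in the perinatal comparison. Those settings acted only through what the pools share in 1 fit, such as spread, filter and scaling.

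Leaving out 1 pool at a time gave 6 to 6 members in the gonadal, 7 to 8 in the arrest, 2 to 3 in the perinatal, 1 to 2 in the re-entry, 1 to 3 in the spermatogonia, 1 to 4 in the first wave and 6 to 8 in the late comparison. It gave 0 to 4 for PND30 1N against 4N, 9 to 9 for the reporter gates and 0 to 0 for Helq and for gonad position. In the spermatogonia comparison, 2576 genes were called without PND1 replicate 2, against 5920. For Helq null cells, 346 genes were called with no filter and 574 with DESeq2, against 163, and leaving out E14.5 wild-type replicate 1 lowered the count by just over 1.5 times.

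With a replicate block, the members called were 6 (gonadal), 7 (arrest), 4 (perinatal), 2 (re-entry), 2 (spermatogonia), 3 (first wave), 8 (late), 7 (PND30), 9 (reporter), 0 (Helq) and 0 (gonad position), and no call of the paired gate comparisons was lost. Window pools with the same number share only that number, since their deviations did not correlate more (median 0.00 over 530 pairs) than those with other numbers. For Helq the numbers come from different animals, and the correlations were -0.38 at E13.5, -0.39 at E14.5 and -0.27 at E15.5. The block gave 53 genes, and a crossed pairing, added after seeing the data, 120 genes and 0 members.

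Depth limits Tdrd6 most, since 10 of 50 pools had 0 UMIs of it. E8.5, E17.5 and the adult rest on 1 pool each, windows mix time-points whose levels differ, and germ-cell clusters drop cells that sit between types. Levels are relative to the UMIs of the pool, so a change in total RNA per cell is not seen.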

Other observations

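At PND14 the labelled DNA-content gates let the mixture of cells be seen in part, with 1 pool of each kind and no test. All cells of a gate were summed whatever their cluster, so somatic cells can be among them. Of the PND14 cells, 66 fell into a Sertoli cell cluster and 19 into an interstitial one, not split by gate here. In replicate 1, Tdrkh had 168 CPM in 285 2N cells and 244 CPM in 188 4N cells, Mov10l1 242 and 371 CPM, and Mael 390 and 460 CPM. Tdrd6 was at 0.220 CPM in the 2N and 3.56 CPM in the 4N cells. In the 94 2N cells of replicate 2, Tdrd6 had 19 CPM, Mov10l1 447 CPM and Pld6 161 CPM, so pools of the same gate differed between the replicates. Whether germ cells alone differed was not tested.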
